A study of Homo sapiens with 6 samples.

Results

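The MYC, MAX and MXD network is a set of transcription factors that share a basic helix-loop-helix leucine zipper and pair with each other. The 10 genes described here, out of 54628 in the count files, were taken by symbol: MYC, MYCL, MYCN, MAX, MXD1, MXD3, MXD4, MNT, MLX and MGA. MYC binds the E-box CACGTG as a dimer with MAX and drives genes of growth, ribosome synthesis and proliferation. The MXD proteins and MNT compete for MAX and bring the SIN3 and histone deacetylase corepressor to the same sites, while MLX is a MAX-like protein that pairs with the glucose-responsive factors MondoA (MLXIP) and ChREBP (MLXIPL). MYC is known as a driver of proliferation and metabolism in glioblastoma cells.

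Poly-A RNA was sequenced from 6 samples of U87, a human glioblastoma cell line, after co-culture and cell sorting. Astrocytes are named in the series title as the source of mitochondria. The titles give 3 libraries of cycling cells that had received mitochondria (received) and 3 of cycling cells that had not (not received), and the comparison asks how these differ. No other treatment, genotype or time is given in the labels, and both groups had been co-cultured. Whether the cells of the groups already differed before mitochondria were received was not tested. Fell and rose below mean lower and higher in received than in not-received libraries. Whether replicates come from different cultures is not stated, and the p-values below then reflect only variation among these samples, which may be technical.

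Total counts ran from 17879552 to 46392491 per library, the highest in not-received replicate 2, which lay apart on the first principal component (-46.3 against -14.9 and -16.2 in the others of its group). Each member result is therefore also given without it. CDKN2A, CDKN2B and MTAP, which U87 cells are known to lack, had 0 counts in every library. Of 12 astrocyte markers, AQP4, ALDH1L1 and GJB6 were at 0 everywhere and 7 stayed under 1 CPM (read counts scaled to sequencing depth) in every library. Their summed level was 392.2 to 429 CPM in received and 330 to 381 CPM in not-received libraries, most of it the connexin GJA1. Of the 5 astrocyte markers tested, 2 were called higher by edgeR and 0 lower (40% called). Over all genes tested 18.9% were called, 9.21% higher and 9.67% lower. The 2 were GJA1 (0.38) and SOX9 (0.31, lost without received replicate 1 or 3). ALDOC (-0.21), SLC1A3 (-0.20) and SLC4A4 (-0.10) were negative and not called. Of 8 tested glioma cell markers, 2 were called higher and 2 lower (50% called). The part of the astrocyte markers in the results was not tested. GFAP, the defining astrocyte filament gene, had 4 to 13 counts per library. In bulk RNA, fewer cells of a kind and less RNA per cell cannot be told apart.

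In cells that had received mitochondria, 3 of the 5 MAX-binding repressors of the MXD family and MNT were called lower, and MXD1 and MXI1 were not called. MXD4, MXD3 and MNT fell by 0.74, 0.37 and 0.35 on the log2 scale, and MAX fell by 0.19. MYC stood 1.13-fold higher but was not called. Of the 10 members, 8 passed the filter on low counts, each with at least 76 counts in every library, and 4 of these 8 were called lower and 0 higher (edgeR quasi-likelihood test, adjusted p under 0.05 over all genes tested). Over all 14100 genes tested, 18.9% were called, 9.67% lower and 9.21% higher. At an unadjusted p under 0.05, edgeR, DESeq2 and limma-voom each gave 1 member higher and 4 lower of 8, where 33.3%, 29.9% and 34.4% of all genes passed in the same order of tools (16.6%, 14% and 17.3% higher, 16.7%, 15.9% and 17.2% lower). By adjusted p DESeq2 and limma-voom also called 4 lower and 0 higher, beside 10.8% and 8.83% of genes lower and 8.71% and 8.93% higher, or 19.6% and 17.8% in all. The median log2 fold change of the 8 was -0.16, where that of all genes tested was -0.00.

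Promoter sequence is shown for each member found with a canonical E-box, the site that MYC-MAX and MXD-MAX dimers share. Of these, MXD4 and MNT were called lower and MLX was not called. MXD3 and MAX, in which no canonical E-box was found, were also called lower. RefSeq promoter windows (GRCh38.p14, 250 bases before to 50 after a transcript start) were found for 9 of the 10 members, all but MYC. CACGTG, which reads the same on both strands, was in the single window of each of MXD4, MNT and MLX, and in 7.26% of all 35116 windows. The sequences below are the 250 bases before the start, read 5′ to 3′ on the gene's strand, with the E-box in capitals.
MXD4 (chr4:2262110-2262359, minus strand) is first, followed by MNT (chr17:2401061-2401310, minus strand) and MLX (chr17:42566850-42567099, plus strand).
MXD4: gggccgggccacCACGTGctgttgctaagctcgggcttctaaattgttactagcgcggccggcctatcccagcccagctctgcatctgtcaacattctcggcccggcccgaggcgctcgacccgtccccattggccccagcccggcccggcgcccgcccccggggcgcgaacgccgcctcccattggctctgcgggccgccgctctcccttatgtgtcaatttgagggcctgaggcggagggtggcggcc
MNT: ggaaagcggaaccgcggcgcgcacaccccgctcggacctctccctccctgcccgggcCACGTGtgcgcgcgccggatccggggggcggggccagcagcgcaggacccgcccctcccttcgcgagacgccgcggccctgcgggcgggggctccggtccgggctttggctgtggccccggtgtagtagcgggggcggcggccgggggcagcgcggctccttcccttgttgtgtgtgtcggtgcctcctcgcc
MLX: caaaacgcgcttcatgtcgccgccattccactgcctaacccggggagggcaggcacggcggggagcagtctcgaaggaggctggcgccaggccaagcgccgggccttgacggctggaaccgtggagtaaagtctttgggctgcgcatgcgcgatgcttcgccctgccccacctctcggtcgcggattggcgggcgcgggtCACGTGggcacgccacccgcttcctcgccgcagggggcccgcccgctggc
The E-box began 238 bases before the start in MXD4, 193 in MNT and 50 in MLX. MXD3, MAX, MXD1, MYCL, MYCN and MGA had no CACGTG in their windows. The variant CACGCG, searched on both strands and found in 11.4% of all windows, was in the window of MXD3 and in 1 of the 3 windows of MGA. A match is a description of these letters and says nothing of binding.

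Across the 10538 tested genes with a window, those with and without the E-box were called in both directions. Of 1306 with CACGTG in at least 1 window, 7.73% were called higher and 11.03% lower, with a median log2 fold change of -0.01. Of 9232 without it, 9.87% were called higher and 9.74% lower, with a median of 0.01. Genes with the motif had more windows each (a mean of 1.75 against 1.42), and no test was made.

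MYC, the activator of the network, was the member with the most counts per length. TMM-scaled levels were 107, 112 and 110 CPM in not-received replicates 1, 2 and 3 and 123, 118 and 133 CPM in received replicates 1, 2 and 3. The received libraries all lay above the not-received libraries, with a gap of a few CPM between the nearest of them. The difference was 0.18 ± 0.06 on the log2 scale (SE; edgeR adjusted p = 0.0561, unadjusted p = 0.0112), so MYC did not pass. Over 13 alternative settings the log2 fold change ran from 0.14 to 0.22 and passed in 3: with scaling by library size alone (adjusted p = 0.0218), with a filter of 1 CPM in 3 samples (adjusted p = 0.0479) and without not-received replicate 2 (log2 fold change 0.19, adjusted p = 0.0252). The highest adjusted p, 0.221, came without received replicate 3.

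The paralogs of MYC were close to silent in these counts. MYCN, the paralog of neural and embryonic tissue, had 0 counts in all 6 libraries, which allows up to 3 counts, equal to 0.0647 CPM at the greatest depth and 0.168 CPM at the least. MYCL had 3, 13 and 5 counts in not-received replicates 1 to 3 and 9, 3 and 3 in received replicates 1 to 3, under 0.5 CPM throughout, and was not tested. These limits cover counting error only. Some genes that most cells transcribe strongly were near 0 as well, among them LDHA with 1 to 10 counts and EIF4A1 with 0, both chosen after their values were seen, so a count near 0 in these files is uncertain.

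MAX, the obligate partner of MYC and of the repressors, was lower. It stood at 95.9, 94.1 and 94.7 CPM in not-received replicates and at 86.5, 79.2 and 83.4 CPM in received replicates 1, 2 and 3. The groups did not overlap, and the not-received libraries lay within 2 CPM of each other. MAX fell by 0.19 ± 0.06 on the log2 scale (SE; edgeR adjusted p = 0.0399), a call close to the threshold. It was made in 5 of 13 alternatives. It was lost without any 1 received library or without not-received replicate 1 or 3 (adjusted p up to 0.194), with scaling by library size alone (0.0840), without a low-count filter (0.0614) and when replicate number entered as a block (0.0539). Without not-received replicate 2 it was -0.20 with an adjusted p of 0.0224. In RefSeq the span of FNTB overlaps MAX, and FNTB had 0 to 11 counts per library. The split of shared reads between MAX and FNTB is uncertain.

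MXD4, also known as MAD4, is a MAX-binding repressor linked to differentiation and exit from the cell cycle, and it had the largest change in the network. It stood at 36.4, 30.9 and 30.3 CPM in not-received replicates 1, 2 and 3 and at 19.6, 19.95 and 18.8 CPM in received replicates 1, 2 and 3. Every received library lay more than 10 CPM under the lowest not-received library. The level was 1.67-fold lower in received cells (19.5 ± 0.572 against 32.5 ± 3.35 CPM, SD, n = 3 each), or -0.74 ± 0.09 as a log2 fold change (SE; edgeR adjusted p = 8.88e-05). The call was kept in all 13 alternatives, with log2 fold changes from -0.78 to -0.65 and a highest adjusted p of 0.00254. Without not-received replicate 2 it was -0.77.

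MXD3, also known as MAD3, differs from the other MXD genes in being expressed in cycling cells, in S phase. Its levels were 69.1, 61.5 and 56.0 CPM in not-received replicates 1, 2 and 3 and 50.2, 46.6 and 47.9 CPM in received replicates 1, 2 and 3. The groups did not overlap, and the not-received libraries were spread more widely than the received ones. MXD3 fell by 0.37 ± 0.08 on the log2 scale (SE; edgeR adjusted p = 0.00697), 1.29-fold. The call was kept in 12 of 13 alternatives and missed without received replicate 2 (log2 fold change -0.34, adjusted p = 0.0552). Without not-received replicate 2 it was -0.37. In RefSeq the span of PRELID1 overlaps MXD3, and PRELID1 went the other way (0.33 on the log2 scale, edgeR adjusted p = 0.0382). The counting rule for shared reads is not given, so the split between these genes is uncertain.

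MNT is a large MAX-binding repressor that most cells express and that also pairs with MLX. It stood at 31.0, 30.5 and 25.7 CPM in not-received replicates 1, 2 and 3 and at 24.7, 20.7 and 23.1 CPM in received replicates 1, 2 and 3. The groups did not overlap, but not-received replicate 3 lay about 1 CPM above received replicate 1. MNT fell by 0.35 ± 0.09 on the log2 scale (SE; edgeR adjusted p = 0.0198). The call was lost without not-received replicate 1 (adjusted p = 0.0598), received replicate 2 (0.1195) or received replicate 3 (0.0766). Without not-received replicate 2 it was -0.31 with an adjusted p of 0.0316.

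MXD1 and MXI1, the other repressors of the MXD family, were not called. MXD1 (MAD1) was low, at 4.13, 5.35 and 5.13 CPM in not-received and 4.19, 6.97 and 4.61 CPM in received replicates, with overlapping groups (log2 fold change 0.10 ± 0.20 SE, edgeR adjusted p = 0.765), and its sign turned without received replicate 2 (-0.15). The span of ASPRV1 overlaps MXD1 in RefSeq, and ASPRV1 had 47 to 110 counts per library (0.13 on the log2 scale, edgeR adjusted p = 0.724). The split of shared reads between MXD1 and ASPRV1 is uncertain. MXI1, a close relative that was not among the 10 members, stood at 18.3, 22.2 and 24.01 CPM in not-received and 29.7, 24.6 and 24.01 CPM in received replicates. The highest not-received and the lowest received library of MXI1 were practically level. MXI1 was not called (0.28 ± 0.11, edgeR adjusted p = 0.0972), and passed in 1 of 13 alternatives, without a low-count filter (0.0252). Whether the change of MXD4 or MXD3 differed from that of MXI1 was not tested.

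**Figure D1:**
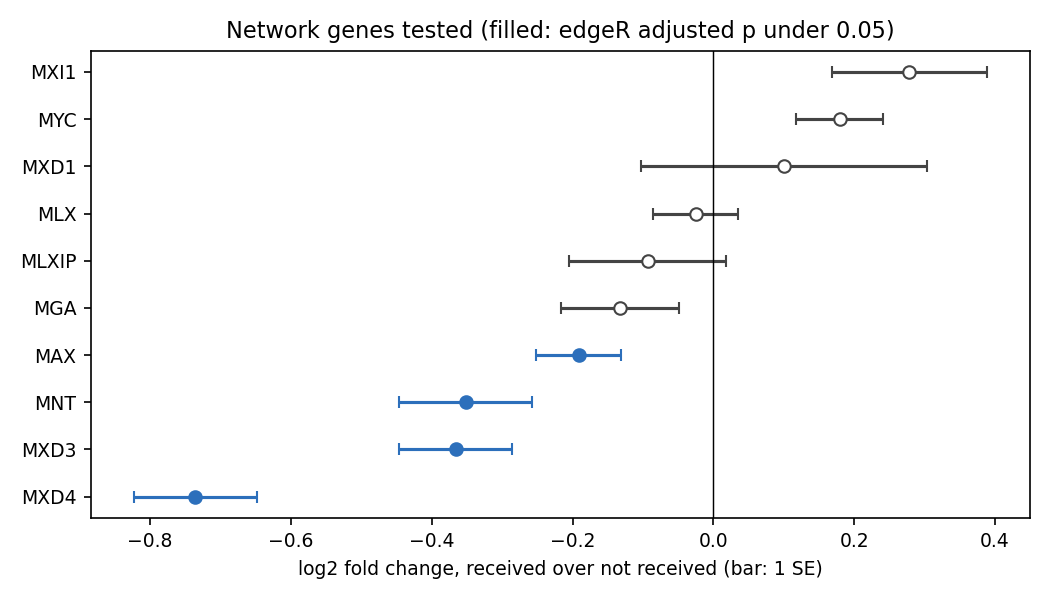
Log2 fold change of received over not-received cells (x axis) with 1 SE for the 8 tested members and the partners MXI1 and MLXIP (y axis), filled where the edgeR adjusted p was under 0.05. MXD4 is at -0.74, MXD3, MNT and MAX lie between -0.37 and -0.19, and MYC at 0.18 is open.

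MGA and MLX, which connect the network to other complexes, were not called. MGA, a very large MAX partner with a second, T-box DNA-binding domain, stood at 26.4, 30.5 and 26.2 CPM in not-received and 25.4, 24.4 and 26.5 CPM in received replicates (log2 fold change -0.13 ± 0.08 SE, edgeR adjusted p = 0.287). MLX stood at 72.4, 70.3 and 71.1 CPM in not-received and 71.2, 68.1 and 70.7 CPM in received replicates (-0.03 ± 0.06, edgeR adjusted p = 0.804), and its sign turned with scaling by library size alone (0.01). In RefSeq the span of PSMC3IP overlaps MLX, and PSMC3IP was called lower (-0.50 on the log2 scale, edgeR adjusted p = 0.00755). The split of shared reads between MLX and PSMC3IP is uncertain. MLXIP, which encodes MondoA, stood at 23.0, 17.1 and 18.8 CPM in not-received and 18.3, 17.0 and 19.5 CPM in received replicates (-0.09 ± 0.11, edgeR adjusted p = 0.596). It turned to 0.03 without not-received replicate 1. Without not-received replicate 2, MGA stood at -0.05, MLX at -0.04 and MXD1 at 0.17 on the log2 scale, none of them called (edgeR adjusted p = 0.623 to 0.729). MLXIPL had 2, 8 and 4 counts in not-received and 1, 0 and 0 in received libraries, too few to test.

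Levels of different genes were compared per kilobase of the protein-coding exons (all transcripts joined) from GENCODE v29, which need not be the annotation the authors used. In not-received cells MYC was highest, at 36.7 ± 0.834 CPM per kilobase (SD, n = 3), ahead of MLX at 27.5 ± 0.409, MAX at 23.1 ± 0.219 and MXD3 at 18.9 ± 1.99. MXD4 followed at 8.02 ± 0.827, MNT at 5.82 ± 0.584 and MXI1 at 5.31 ± 0.718, and the last of these pairs did not differ beyond its spread. MLXIP stood at 2.09, MGA at 1.82 and MXD1 at 0.867. In received cells MYC was again highest at 41.5 ± 2.48, and MXI1 at 6.45 ± 0.768 stood above MXD4 at 4.80 ± 0.141 and MNT at 4.57 ± 0.408, which did not differ beyond their spread. With the longest coding transcript as the length, MAX stood above MLX in not-received cells (30.1 against 27.6), so that order is uncertain. The split of reads shared with overlapping genes is also uncertain for MAX, MLX, MXD1 and MXD3, and the levels compared here carry that limit.

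A ratio of counts inside a library does not move with scaling between libraries. The summed counts of MXD1, MXI1, MXD3, MXD4 and MNT were 1.48, 1.34 and 1.28 per MYC count in not-received replicates 1, 2 and 3 and 1.04, 1.01 and 0.892 in received replicates 1, 2 and 3. All 3 received libraries lay under all 3 not-received libraries (0.980 ± 0.0787 in received against 1.37 ± 0.102, SD, n = 3 each). The exact two-sided permutation p was 0.1, the smallest that 3 against 3 can give. The difference was -0.39, and from -0.43 to -0.33 with 1 library left out. MXD4 alone gave 0.157 ± 0.0137 per MYC count against 0.296 ± 0.0369, and MXD3 gave 0.388 ± 0.0242 against 0.566 ± 0.0695. MXI1 per MYC count overlapped between the groups (0.181 to 0.241 against 0.170 to 0.218). MYC per MAX count was 1.42, 1.49 and 1.59 in received and 1.12, 1.19 and 1.16 in not-received libraries. These ratios are not corrected for gene length.

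**Figure D2:**
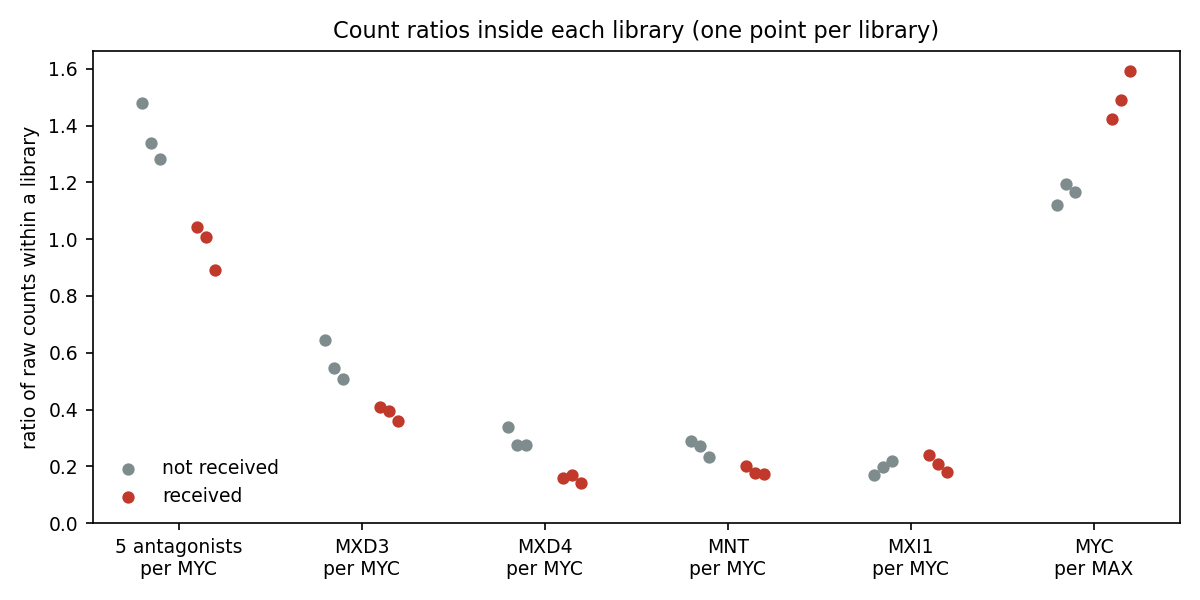
Ratio of raw counts within each library (y axis, from 0), 1 point per library, grey for not received and red for received. Repressors per MYC count sit at 0.892 to 1.04 in received against 1.28 to 1.48 in not-received libraries, MYC per MAX is higher in received libraries, and MXI1 per MYC overlaps.

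Of the 8 tested members, the groups did not overlap in 5, with received libraries lower in 4 and higher in 1. Over all genes tested 39% did not overlap, 19.5% in each direction. The tested genes whose level over the 6 libraries was most like that of MYC, among 11535 that passed a minimum mean log2 CPM of 1, were MEIS2, LSM12, QTRT2, C1orf35 and NUP88, with root-mean-square differences of 0.02 to 0.03 in mean-centred log2 CPM. MEIS2, a homeobox factor, stood at 57.0 ± 3.15 CPM in received against 51.7 ± 1.64 CPM in not-received cells, and NUP88, a nuclear pore protein, at 73.4 ± 3.82 against 64.6 ± 2.46 CPM (SD, n = 3 each). Like MYC, none of the 5 was called by edgeR (adjusted p = 0.0693 to 0.182). They were picked by these same values, so a result near that of MYC follows from the choice. Such likeness rests on 6 libraries.

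The genes downstream and around the network are given by their counts of calls, which carry no test of a list and are to be read beside the 18.9% called over all genes. Of 25 listed genes of growth and metabolism that MYC is known to induce, 22 were tested, 5 were called higher and 2 lower (31.8% called), with a median log2 fold change of 0.13. ODC1, the rate-limiting enzyme of polyamine synthesis and a classic MYC target, stood at 145, 132 and 140 CPM in not-received and 213, 221 and 228 CPM in received replicates. Its groups were far apart, and it rose by 0.67 ± 0.06 on the log2 scale (SE; edgeR adjusted p = 8.07e-06). PPAT, the first enzyme of purine synthesis, rose by 0.42 ± 0.07 and the transferrin receptor TFRC by 0.36 ± 0.06. The calls of these 3 were kept with any 1 library left out. SRM and IMPDH2 (0.24 and 0.20) were also called higher and PKM (-0.21) lower, all named after their values were seen, each lost in 3 or more of 6 leave-one-out fits.

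Of 25 MYC-induced genes listed under ribosome biogenesis, 5 were called higher and 1 lower (24% called, beside 18.9% of all genes). Positive log2 fold changes were found in 22 of the 25, with a median of 0.15. Over all genes tested, 7025 of 14100 were positive. NME1, listed here although it is a nucleoside diphosphate kinase, rose by 0.45 ± 0.09. The RNA polymerase I subunit POLR1B rose by 0.37 ± 0.08, WDR12 by 0.36 ± 0.07 and BOP1 by 0.32 ± 0.08 (SE; edgeR adjusted p = 0.00273 to 0.0122, NME1 included). BOP1 and WDR12 act together in large ribosomal subunit maturation. The call of BOP1 was lost without received replicate 3 (adjusted p = 0.0790). The member that fell, named after its value was seen, was UBTF, an RNA polymerase I transcription factor (-0.32 ± 0.06). The count of 5 ran from 3 to 10 with 1 library left out.

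Of 14 tested MYC-induced genes of the cell cycle, 5 were called lower, 0 higher and 9 not (edgeR, 35.7% called). Beside this stood 18.9% of all genes tested, 9.67% lower and 9.21% higher. The list had 5 positive and 9 negative log2 fold changes and a median of -0.14. With any 1 library left out the lower calls numbered 3 to 6 and the higher calls 0 or 1. ID2, an inhibitor of helix-loop-helix factors that BMP signals also induce, stood at 43.5, 38.9 and 38.7 CPM in not-received and 19.6, 17.7 and 18.1 CPM in received replicates. It fell by 1.12 ± 0.08 on the log2 scale (SE; edgeR adjusted p = 1.53e-06). The S-phase factor E2F1 fell by 0.44 ± 0.06, and the replicative helicase subunits MCM4 and MCM5 by 0.38 ± 0.05 and 0.29 ± 0.06. The fifth was CCNE1, cyclin E1 (-0.27), named after its value was seen and lost when not-received replicate 2 or any received library was dropped. The call of MCM5 was lost without received replicate 1 (adjusted p = 0.0505).

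Of 17 tested genes that MYC is known to repress, 3 were called higher and 5 lower (47.1% called, beside 18.9% of all genes). The list median was -0.10. THBS1, the antiangiogenic thrombospondin, fell from 15.2 ± 1.21 to 8.03 ± 0.333 CPM, and FTH1, ferritin heavy chain, from 3274 ± 141 to 2385 ± 36.9 CPM (SD, n = 3 each). CEBPD, a transcription factor of inflammatory responses, rose by 0.58 ± 0.08. NDRG2 fell by 0.52 ± 0.15 (edgeR adjusted p = 0.0316), a call that held in 1 of 6 leave-one-out fits. CDKN1A, the p21 inhibitor of cyclin-dependent kinases, named after its value was seen, stood at 329 ± 13.6 CPM in received against 291 ± 5.71 CPM in not-received cells and was likewise called in 1 of those 6 fits.

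Of 7 listed glucose-responsive targets of MondoA-MLX and ChREBP-MLX, 5 were tested, with a median log2 fold change of 0.38. By edgeR 3 were called higher and 0 lower (60% called; 1 lower in some alternatives). Beside this stood 18.9% of all genes tested, 9.21% higher and 9.67% lower. ARRDC4, an alpha-arrestin, stood at 40.8, 46.7 and 46.6 CPM in not-received and 74.4, 77.3 and 65.6 CPM in received replicates, and rose by 0.69 ± 0.08 (SE; edgeR adjusted p = 7.60e-05). ARRDC3 rose by 0.44 ± 0.08 and TXNIP, the thioredoxin-interacting inhibitor of glucose uptake, by 0.38 ± 0.08. These 3 calls were kept in all 13 alternatives. HK2, the hexokinase of many tumours, was at -0.24 ± 0.08 on the log2 scale (adjusted p = 0.0533, edgeR) and KLF10 at 0.09 ± 0.06, both named after their values were seen.

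**Figure D3:**
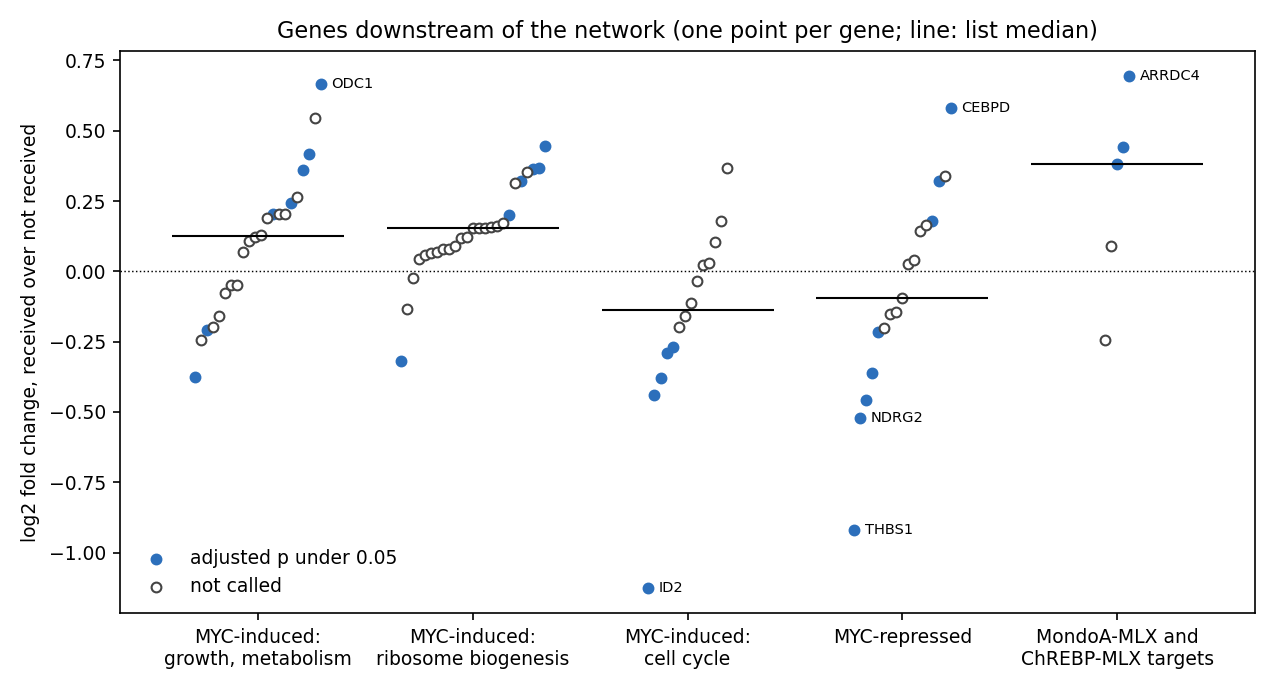
Log2 fold change of received over not-received cells (y axis) for each tested gene of 5 target lists (x axis), filled where the edgeR adjusted p was under 0.05, with a line at each list's median. Ribosome biogenesis genes sit mostly above 0 (22 of 25), cell cycle genes have a median of -0.14, and ARRDC4, ODC1 and CEBPD lead the increases.

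Of 17 MYC cofactors 2 were called higher and 0 lower by edgeR (11.8% called, beside 18.9% of all genes; 0 to 4 lower over the alternatives): PRMT5, an arginine methyltransferase (0.27 ± 0.07), and the ATPase RUVBL1 (0.23 ± 0.06), each lost without received replicate 3 (adjusted p up to 0.0810). Of 23 genes of MYC turnover and phosphorylation 1 rose and 1 fell (8.70% called). PIM1, a kinase that stabilises MYC and is induced by JAK-STAT and NF-kB signals, rose from 32.5 ± 2.75 to 54.3 ± 3.14 CPM (SD, n = 3 each; edgeR adjusted p = 4.54e-05), a call kept in all 13 alternatives. SKP2, a ubiquitin ligase subunit that targets MYC and p27, fell by 0.33 ± 0.07, and its call was lost without received replicate 1 (adjusted p = 0.0561). FBXW7, the main ubiquitin ligase adaptor of MYC, named after its value was seen, was at 0.27 ± 0.10 on the log2 scale (adjusted p = 0.0619, edgeR).

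Of 14 genes of the SIN3 corepressor that MXD and MNT recruit, 2 fell and 1 rose (21.4% called, near the 18.9% of all genes), none with a call that held with each library left out in turn. SAP30 fell by 0.32 ± 0.08, BRMS1 by 0.23 ± 0.07, and the deacetylase HDAC2 rose by 0.17 ± 0.06 (edgeR adjusted p = 0.0160, 0.0355 and 0.0472). The scaffold SIN3A, also named after its value was seen, stood at -0.05 ± 0.07. In the Polycomb complex that holds MGA, 2 of 11 genes rose and 2 fell (36.4% called). RYBP rose by 0.72 ± 0.17, from 4.42 ± 0.571 to 7.21 ± 1.104 CPM (SD, n = 3 each), and the E2F partners TFDP2 and TFDP1 fell by 0.31 ± 0.09 and 0.20 ± 0.05. These 3 calls were each lost without received replicate 2 or 3 (adjusted p up to 0.150). The call of RYBP was kept in 4 of 6 leave-one-out fits, and those of TFDP1 and TFDP2 in 2 of 6 each. The other increase was RING1, named after its value was seen, with 3 to 15 counts per library. Of 12 germline genes that this complex silences 3 were tested, 1 called higher and 0 lower (33.3% called, beside 18.9% of all genes). SYCE2 (0.19) and MEIOC (0.89) were not called (edgeR adjusted p = 0.697 and 0.0760), both also named after their values were seen. DAZL, a germ cell RNA-binding protein named after its value was seen, was called higher at 5, 15 and 12 counts in not-received and 41, 37 and 20 counts in received replicates (2.10 ± 0.37, edgeR adjusted p = 0.00183), a level under 2 CPM.

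**Figure D4:**
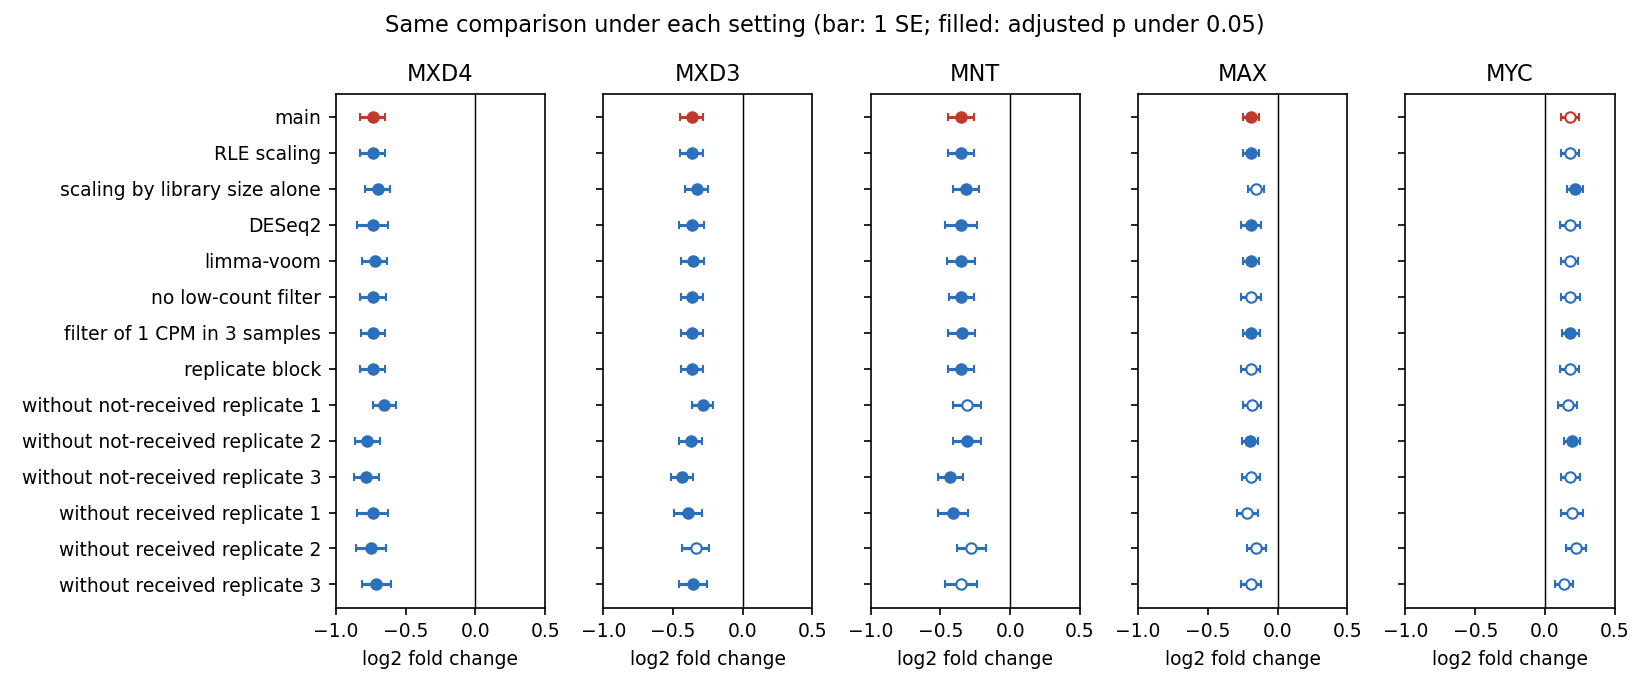
Log2 fold change of received over not-received cells with 1 SE (x axis) for MXD4, MXD3, MNT, MAX and MYC under the main setting (red) and 13 alternatives (blue), 1 row each, filled where the adjusted p was under 0.05. MXD4 is filled throughout, MXD3 in 12, MNT in 10, MAX in 5 and MYC in 3 of the alternatives.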

How the data were processed

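Poly-A RNA of sorted U87 cells was read as 150 bp pairs on an Illumina NovaSeq, per the labels' protocols. The authors deposited unnormalized whole-number read counts, 1 file per library, keyed by gene symbol. DESeq and R 3.6.1 appear in the submitters' processing notes. Not given in the sources used here are the aligner, counter, strand setting, genome build and annotation.

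After filterByExpr (14100 of 28833 genes with a count) and TMM scaling, group was the single term of a robust quasi-likelihood fit (glmQLFit, glmQLFTest; edgeR 4.0.16, R 4.3.3) and Benjamini-Hochberg adjustment over all genes tested. CPM are TMM-scaled, and SEs were derived from the F statistic (log2 fold change over its square root). DESeq2 1.42.0 and limma-voom (limma 3.58.1) were among 13 alternatives. On simulated counts the steps recovered 84 of 100 changes of 2-fold and 60 of 100 changes of 1.5-fold. Of the 162 calls made there, 18 were false. Changes under 1.5-fold were not simulated. Replicate pairs all differed by more than sampling noise, with a chi-square of 3.40 to 20.6 per gene. Target lists are described by counts and medians, with no set test. From each list, up to 4 called members with the largest fold changes whose mean log2 CPM reached 1 were named. The members and lists were chosen with earlier results of these data known. The labels name no molecular identifiers, so reads may repeat 1 molecule. The values of 1 listed gene are not reported here.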

Additional observations from a re-analysis of the deposited data

How the results depend on the processing

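The direction of MYC, MAX, MXD3, MXD4, MNT, MGA and MXI1 was the same in all 13 alternatives. MYC passed the threshold with scaling by library size alone (log2 fold change 0.22) and with a filter of 1 CPM in 3 samples (0.18), so that 1 member was called higher under each of these. With 1 library left out it ran from 0.14 to 0.22, the members called lower from 1 to 4 and those called higher from 0 to 1. Signs turned for 3 genes that were called in no alternative: MLX (to 0.012 with library size alone), MLXIP (with 1 library left out from -0.194 to 0.031, the latter without not-received replicate 1) and MXD1 (-0.15, without received replicate 2). The cause was not tested. Over all genes tested, 1298 were called higher and 1364 lower. Without a low-count filter 2084 were lower, with library size alone 1683 were higher and 1110 lower, and with 1 library left out 604 to 1356 were higher and 691 to 1579 lower.

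Same-numbered libraries had correlations of -0.31, -0.07 and 0.10 in their deviations from the group means. Differently numbered libraries had correlations from -0.29 to 0.35. Deviations from a mean of 3 libraries are tied to each other, so these values cannot decide whether the replicate numbers pair the samples. With the replicate number as a block, 1252 genes were called higher and 1384 lower, 3 members lower and 0 higher (edgeR; the call of MAX was lost), and MYC stood at 0.18. The ratio of repressor to MYC counts kept its difference of -0.39, with an exact permutation p of 0.25 within replicate numbers, the smallest possible. Without MNT that difference was -0.30. MYCL, MYCN and MLXIPL were at or near the floor of 3 counts in several libraries. Whether depth or the counting rule set this was not tested.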
